A study of Mus musculus with 6 samples.

Results

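Activins and TGF-betas are secreted dimeric proteins of one superfamily, and the genes described here are those that encode their subunits and the TGF-beta receptors. All 8 of these genes were found by symbol among the 17551 genes of the deposited count table, and all 8 passed the filter on low counts that left 14643 genes for testing. They are Inhba and Inhbb, which encode the activin beta subunits, the ligand genes Tgfb1, Tgfb2 and Tgfb3, and the receptor genes Tgfbr1, Tgfbr2 and Tgfbr3. RNA came from mouse neurospheres on a C57BL/6 background, which are neural stem and progenitor cells that grow as floating clusters, here with EGF and FGF in the medium. The 3 G328V libraries carry the genotype label ACVR1 G328V, a glycine-to-valine change in a BMP type I receptor (BMPs are bone morphogenetic proteins), and the group name NPAC. The 3 WT libraries carry the label ACVR1 WT and the group name NP. The labels do not spell out these abbreviations, other alleles the cultures may carry or the animals behind each culture, so p-values reflect only how far these cultures vary, which may be technical. The question put to the data was how expression of these genes differed between the 2 genotype labels.

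Mature TGF-beta binds the type II receptor encoded by Tgfbr2, which then recruits and activates the type I receptor encoded by Tgfbr1. The active type I receptor phosphorylates SMAD2 and SMAD3, which enter the nucleus with SMAD4. Activins signal to the same SMADs through their own type II and type I receptors. In the brain, TGF-beta signalling is known for roles in progenitor cell cycle exit, astrocyte differentiation and microglial homeostasis.

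The libraries held 115953495 to 191115532 counts. Levels are given as CPM, a gene's share of each library's counts, on library sizes scaled by TMM, a method that aligns the bulk of genes between libraries. Acvr1, the gene named in the genotype label, lay between 244 and 650 CPM in the G328V libraries and between 42.4 and 100 CPM in the WT libraries. Gene counts do not tell the mutant from the wild-type allele. The progenitor genes Sox2 and Vim were high in all 6 libraries, at 134 to 237 and 1718 to 3189 CPM, while Fabp7 and Slc1a3 of radial glia did not exceed 0.574 and 0.155 CPM in either of WT replicates 3 and 70A. Slc1a3 was also at 0 CPM in G328V replicate 3, and Fabp7 read 2.64 and 6.69 CPM in G328V replicates 2 and 3. Other markers of these cells were mixed in WT replicates 3 and 70A. Prom1 and Msi1 were lowest there, Sox9 was highest there at 151 and 140 CPM, and Pax6 read 23.9 and 32.0 CPM. WT replicate 1 stood apart, with Olig2, a factor of the oligodendrocyte lineage, at 416 CPM where no other library exceeded 0.938 CPM. That library also held the most Fabp7 and Nes, at 1313 and 963 CPM, where no other library exceeded 65.1 and 273 CPM. Sox2, Vim, Pax6, Prom1 and Sox9 were each highest in another library. Xist was at 443 to 795 CPM in G328V and at most 1.18 CPM in WT, and the Y-linked genes Ddx3y, Uty and Kdm5d were at most 0.0544 CPM in G328V and at least 5.33 CPM in WT. The Y-linked Eif2s3y reached 81.1 CPM in WT replicate 1 and 51.8 CPM in WT replicate 70A but only 0.0114 CPM in WT replicate 3, within the G328V range. With these groups, sex-linked expression and genotype cannot be told apart. In bulk RNA, fewer cells of a type and less RNA per cell cannot be told apart either.

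None of the 8 genes passed edgeR's quasi-likelihood test of G328V against WT at a false discovery rate (FDR) under 0.05, and neither did any of the 14643 genes tested (0% called). That test did not call even Xist or Ddx3y, whose levels lay far apart between the groups (edgeR adjusted p = 0.254 and 0.718). A gene that edgeR did not call is therefore not shown to be alike in the groups. At an unadjusted p under 0.05 edgeR counted 1 of the 8, Inhba, as lower, where at that p 1.88% of all genes were higher, 2.17% lower and 4.06% either. DESeq2, run as an alternative, also called 0 of the 8, where it called 1.05% of the genes to which it gave an adjusted p, 0.569% as higher and 0.478% as lower. Log2 differences, G328V minus WT, were positive for 4 of the 8 and negative for 4, with a median of -0.27 against -0.0039 over all genes tested. The 2 groups overlapped for each of the 8, where 5.25% of all genes were higher and 4.45% lower without overlap, 9.70% in all. Without WT replicate 1 edgeR again called 0 of the 8 and 0 genes in all, and at an unadjusted p under 0.05 it counted Inhba and Tgfbr3 as lower, where 2.93% of genes were higher and 3.82% lower, 6.75% in all. DESeq2 without WT replicate 1 called Inhba and Tgfbr3 as lower, where it called 2.89% of genes as higher and 1.75% as lower, 4.63% in all. Without WT replicates 3 and 70A it called 0 of the 8 and 1.72% and 2.38% of genes, without G328V replicates 1 and 3 0 of the 8 and 1.79% and 2.07%, and without G328V replicate 2 Tgfbr2 alone of the 8 and 2.49%.

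**Figure D1:**
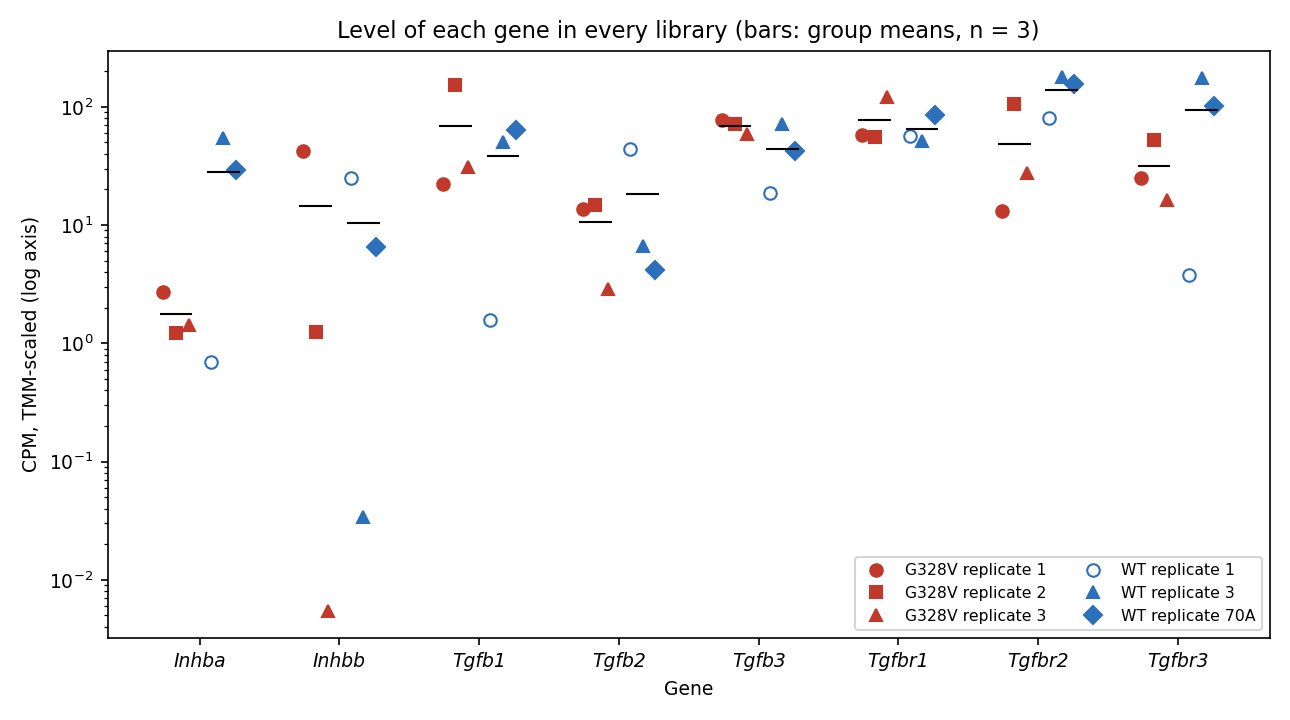
CPM of the 8 genes (log axis) in each library, G328V in red and WT in blue, with WT replicate 1 as an open circle and the group means of 3 libraries as black bars. The groups overlap for every gene, WT replicate 1 lies lowest of all 6 libraries for Inhba, Tgfb1, Tgfb3 and Tgfbr3, and Inhbb spans from 0.00544 to 42.2 CPM.

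The 250 bases before the start sites of Inhba, Tgfbr2 and Tgfb2 are shown because Inhba, Tgfbr2 and Tgfbr3 had negative differences in all 21 alternative settings, while Tgfb2 was highest in the WT library where Inhba was lowest. The sequences are from RefSeq (GRCm38.p6), whose promoter table held 6 of the 8 genes, not Tgfb3 and Tgfbr3, and run 5′ to 3′ on the strand of the gene. None of these windows overlapped a GENCODE M21 exon of its gene. The Inhba window lies on the plus strand at chr13:16011601-16011850, the Tgfbr2 window on the minus strand at chr9:116175364-116175613 and the Tgfb2 window on the minus strand at chr1:186705990-186706239. Capitals mark matches on either strand to the TATA-box letters TATAAA or to CAGAC, the box that SMAD3 and SMAD4 can bind.
Inhba: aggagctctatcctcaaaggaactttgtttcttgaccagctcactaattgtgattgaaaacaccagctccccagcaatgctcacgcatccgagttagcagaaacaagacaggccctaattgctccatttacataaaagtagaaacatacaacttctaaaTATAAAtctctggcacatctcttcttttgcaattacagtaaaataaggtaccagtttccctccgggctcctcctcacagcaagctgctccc
Tgfbr2: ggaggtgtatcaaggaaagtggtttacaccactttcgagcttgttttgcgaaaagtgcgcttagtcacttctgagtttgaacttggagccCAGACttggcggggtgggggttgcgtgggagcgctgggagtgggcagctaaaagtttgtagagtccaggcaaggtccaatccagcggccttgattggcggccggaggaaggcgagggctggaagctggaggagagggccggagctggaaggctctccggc
Tgfb2: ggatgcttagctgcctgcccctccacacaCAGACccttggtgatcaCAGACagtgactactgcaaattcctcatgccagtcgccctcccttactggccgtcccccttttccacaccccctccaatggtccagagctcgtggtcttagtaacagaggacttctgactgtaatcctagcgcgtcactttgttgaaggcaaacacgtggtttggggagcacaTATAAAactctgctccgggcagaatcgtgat

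Counted from the RefSeq start site, the TATAAA match began at -91 in the Inhba window and at -31 in the Tgfb2 window, and none was in the Tgfbr2 window, where 12.4% of 32851 promoter windows of this length held one. The CAGAC box was present in the Tgfb2 window at -221 and -204 and in the Tgfbr2 window at -160, and 42.2% of all windows held at least 1. The cyclic AMP response element TGACGTCA, the AP-1 site TGANTCA and the GC-rich SMAD element GGCGCC had 0 matches in these 3 windows, against 1.55%, 6.75% and 9.59% of all windows. No match overlapped another. The GC content was 43.2% in the Inhba window, 58.4% in that of Tgfbr2 and 53.6% in that of Tgfb2. These matches describe the letters of the windows and do not show binding.

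Inhba encodes the beta-A subunit, whose homodimer is activin A, and lies on chromosome 13 from 16011851 to 16031621 (GRCm38, GENCODE M21). G328V replicates 1, 2 and 3 measured 2.69, 1.21 and 1.44 CPM of Inhba, and WT replicates 1, 3 and 70A measured 0.699, 54.7 and 29.0 CPM. All 3 G328V libraries and WT replicate 1 were low, and WT replicates 3 and 70A were high, so the groups overlapped only through WT replicate 1. The group levels were 1.78 ± 0.798 CPM in G328V and 28.1 ± 27.0 CPM in WT (SD, n = 3 each). Inhba differed by -3.98 ± 1.39 (log2 difference ± SE, edgeR adjusted p = 0.997, unadjusted p = 0.0276). Leaving out WT replicate 1 gave -4.56 ± 0.57 (SE), with an adjusted p of 0.290 by edgeR and 1.24e-11 by DESeq2. That fit drops the only low WT library and keeps 2 WT libraries, so its small SE and p depend on that choice. DESeq2 gave Inhba an adjusted p of 0.0750 with all 6 libraries and of 0.104 to 0.426 with any other library left out, where the edgeR unadjusted p was 0.0525 to 0.0856. By limma-voom Inhba differed by -2.97 ± 2.45 (SE, limma unadjusted p = 0.268, adjusted p = 0.990). The lower of WT replicates 3 and 70A held 10.8 times the level of the highest G328V library, while WT replicate 3 held 78.2 times the level of WT replicate 1.

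Inhbb encodes the beta-B subunit, which forms activin B or, with beta-A, activin AB, and lies on chromosome 1 from 119415465 to 119422248. Counts of Inhbb were 7243, 151 and 1 across G328V replicates 1, 2 and 3, and 3068, 6 and 1141 across WT replicates 1, 3 and 70A. These are 42.2, 1.25 and 0.00544 CPM for G328V and 24.9, 0.0341 and 6.55 CPM for WT. Each group held a library with 3068 counts or more and one with 6 or fewer, so Inhbb was near absent from G328V replicate 3 and WT replicate 3 and abundant in both libraries numbered 1. Inhbb differed by 0.46 ± 2.54 (log2 difference ± SE, edgeR adjusted p = 0.997), and it was -4.06 without G328V replicate 1 and -0.11 without WT replicate 3. The spread of Inhbb within groups, an SD of 5.20 in log2 CPM, was above that of 99.5% of all genes tested, whose median SD was 0.67.

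The make-up of the activin beta subunits therefore differed between libraries of the same group. Per kilobase of exon, Inhba made up 4.07%, 39.2% and 99.4% of the summed Inhba and Inhbb level across G328V replicates 1, 2 and 3, against 1.83%, 99.9% and 74.6% across WT replicates 1, 3 and 70A. The summed level was 10.3, 0.485 and 0.226 CPM per kb in G328V and 5.97, 8.56 and 6.08 CPM per kb in WT. The 3 WT libraries lay within a narrow range of summed level although 1 was nearly all Inhbb, 1 nearly all Inhba and 1 a mixture. G328V replicates 2 and 3 held little of either subunit, and G328V replicate 1 held more than any WT library, all but a small part of it Inhbb.

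**Figure D2:**
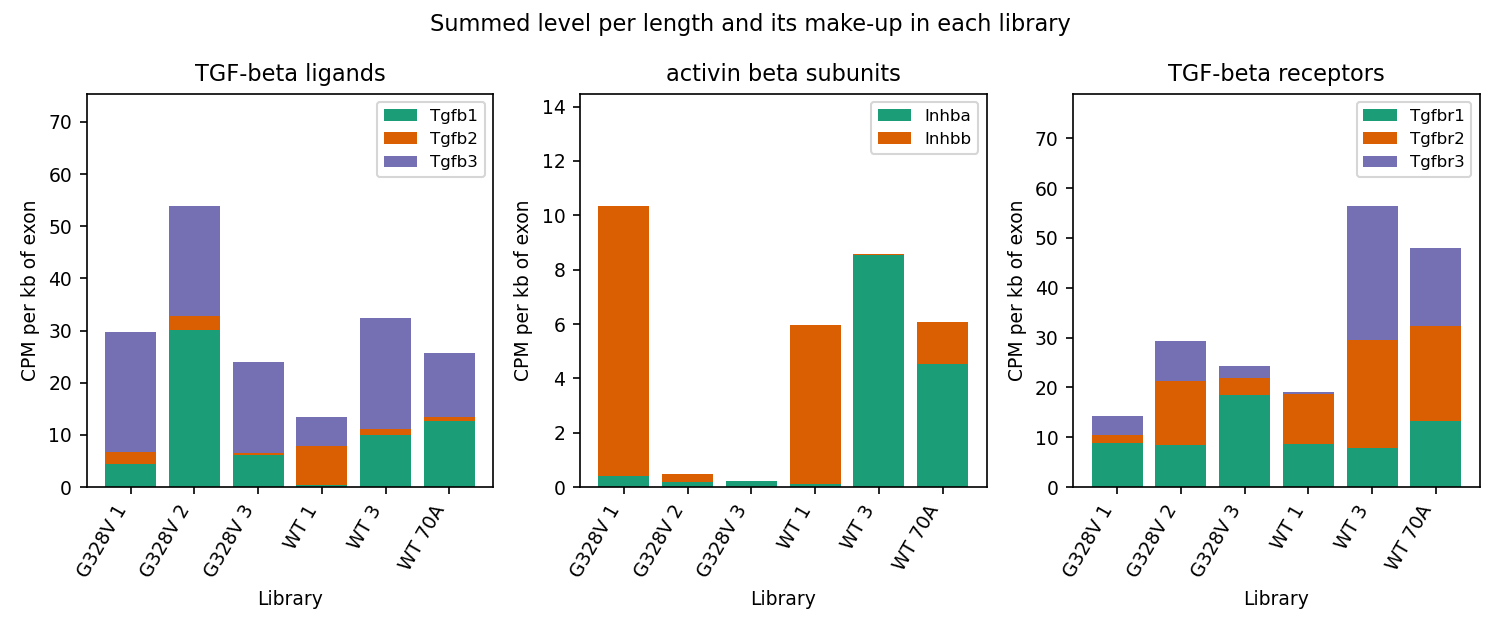
Stacked levels per kilobase of exon (CPM per kb, linear axis) of the TGF-beta ligand genes, the activin beta subunit genes and the TGF-beta receptor genes in each of the 6 libraries, 1 bar per library. Tgfb2 makes up 56.7% of the ligand level in WT replicate 1 and at most 7.99% elsewhere, and the summed receptor level is highest in WT replicates 3 and 70A.

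Tgfb1 encodes TGF-beta 1, the isoform best known from immune and injury settings, and lies on chromosome 7 from 25687002 to 25705077. G328V replicates 1, 2 and 3 measured 22.1, 152 and 30.8 CPM of Tgfb1, and WT replicates 1, 3 and 70A measured 1.58, 50.4 and 63.8 CPM. G328V replicate 2 was the highest and WT replicate 1 the lowest, and the other 4 libraries lay between with the groups apart in the opposite order, WT above G328V. Tgfb1 differed by 0.82 ± 1.29 (log2 difference ± SE, edgeR adjusted p = 0.997), and it turned to -0.55 without G328V replicate 2 and was 0.23 without WT replicate 1.

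Tgfb2 encodes TGF-beta 2, the isoform that depends on the type III receptor for high-affinity binding, and lies on chromosome 1 from 186622792 to 186705989. Levels of Tgfb2 were 13.8, 14.9 and 2.87 CPM across G328V replicates 1, 2 and 3, against 44.2, 6.71 and 4.21 CPM across WT replicates 1, 3 and 70A. WT replicate 1 was the highest and G328V replicate 3 the lowest. Tgfb2 differed by -0.80 ± 1.06 (log2 difference ± SE, edgeR adjusted p = 0.997), and it turned to 0.93 ± 0.83 (SE) without WT replicate 1.

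Tgfb3 encodes TGF-beta 3, known for its part in palate fusion, and lies on chromosome 12 from 86056745 to 86079041. Levels of Tgfb3 were 77.9, 71.5 and 59.0 CPM across G328V replicates 1, 2 and 3, against 18.6, 71.8 and 41.9 CPM across WT replicates 1, 3 and 70A. The G328V libraries lay close together, at 69.5 ± 9.61 CPM against 44.1 ± 26.7 CPM in WT (SD, n = 3 each), and WT replicate 3 lay among them. Tgfb3 differed by 0.65 ± 0.49 (log2 difference ± SE, edgeR adjusted p = 0.997), by 0.27 without WT replicate 1 and by 1.18 without WT replicate 3.

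Per kilobase of exon, Tgfb3 made up 77.3%, 39.2% and 72.5% of the summed TGF-beta ligand level across G328V replicates 1, 2 and 3, against 41.0%, 65.5% and 48.1% across WT replicates 1, 3 and 70A. Tgfb1 led in G328V replicate 2, at 56.0%, and was level with Tgfb3 in WT replicate 70A, at 49.1%. In WT replicate 1 Tgfb2 led, at 56.7%, and Tgfb1 was 2.34% of the sum. The summed level was 29.8, 53.9 and 24.1 CPM per kb in G328V and 13.5, 32.4 and 25.8 CPM per kb in WT, so the groups overlapped and WT replicate 1 was the lowest.

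Tgfbr1 encodes the type I receptor kinase, also called ALK5, and lies on chromosome 4 from 47353222 to 47414931. Levels of Tgfbr1 were 57.4, 55.2 and 121 CPM across G328V replicates 1, 2 and 3, against 56.8, 51.2 and 86.1 CPM across WT replicates 1, 3 and 70A. It varied least of the 8 genes, with an SD within groups of 0.53 in log2 CPM, above that of 40.6% of genes tested. Tgfbr1 differed by 0.26 ± 0.41 (log2 difference ± SE, edgeR adjusted p = 0.997), and it was -0.20 without G328V replicate 3, the highest library.

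Tgfbr2 encodes the type II receptor kinase that binds TGF-beta first, and lies on chromosome 9 from 116084293 to 116175360. G328V replicates 1, 2 and 3 measured 13.2, 105 and 27.4 CPM of Tgfbr2, and WT replicates 1, 3 and 70A measured 81.0, 177 and 157 CPM. G328V replicates 1 and 3 lay below every WT library, and the groups overlapped only because G328V replicate 2 lay above WT replicate 1. The group levels were 48.5 ± 49.4 CPM in G328V and 139 ± 50.8 CPM in WT (SD, n = 3 each), and Tgfbr2 differed by -1.51 ± 0.79 (log2 difference ± SE, edgeR adjusted p = 0.997, unadjusted p = 0.104). Without G328V replicate 2 it was -2.77 ± 0.56 (SE, edgeR unadjusted p = 0.00412, adjusted p = 0.969), and DESeq2 then gave an adjusted p of 5.38e-04. That fit drops the G328V library through which the groups overlapped, so its p depends on that choice. Leaving out WT replicate 1 gave -1.82 (edgeR adjusted p = 0.743).

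Tgfbr3 encodes betaglycan, a type III receptor without a kinase that presents TGF-beta 2 to the type II receptor and also binds inhibin, and lies on chromosome 5 from 107106570 to 107289629. G328V replicates 1, 2 and 3 measured 25.2, 52.7 and 16.2 CPM of Tgfbr3, and WT replicates 1, 3 and 70A measured 3.75, 176 and 102 CPM. WT replicates 3 and 70A lay above every G328V library, and WT replicate 1 lay below all of them. Tgfbr3 differed by -1.58 ± 1.18 (log2 difference ± SE, edgeR adjusted p = 0.997). Leaving out WT replicate 1 gave -2.17 ± 0.55 (SE), with an adjusted p of 0.639 by edgeR and 0.0311 by DESeq2, so that call rested on the tool and on leaving out that library. Without WT replicate 3, the highest library, Tgfbr3 differed by -0.79 ± 1.26 (SE), and by limma-voom with all 6 libraries by -0.75 ± 1.45 (SE).

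Without WT replicate 1 the groups did not overlap for 3 of the 8 genes, Inhba, Tgfbr2 and Tgfbr3, each lower in G328V, where 11.8% of all genes tested were lower and 11.9% higher without overlap, 23.7% in all. The overlap of each of these 3 ran through WT replicate 1, so leaving that library out had to part their groups. With that library, 4 of the 8 genes had their lowest level in WT replicate 1, against 23.3% of all genes tested, and 1, Tgfb2, had its highest there, against 23.1%.

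**Figure D3:**
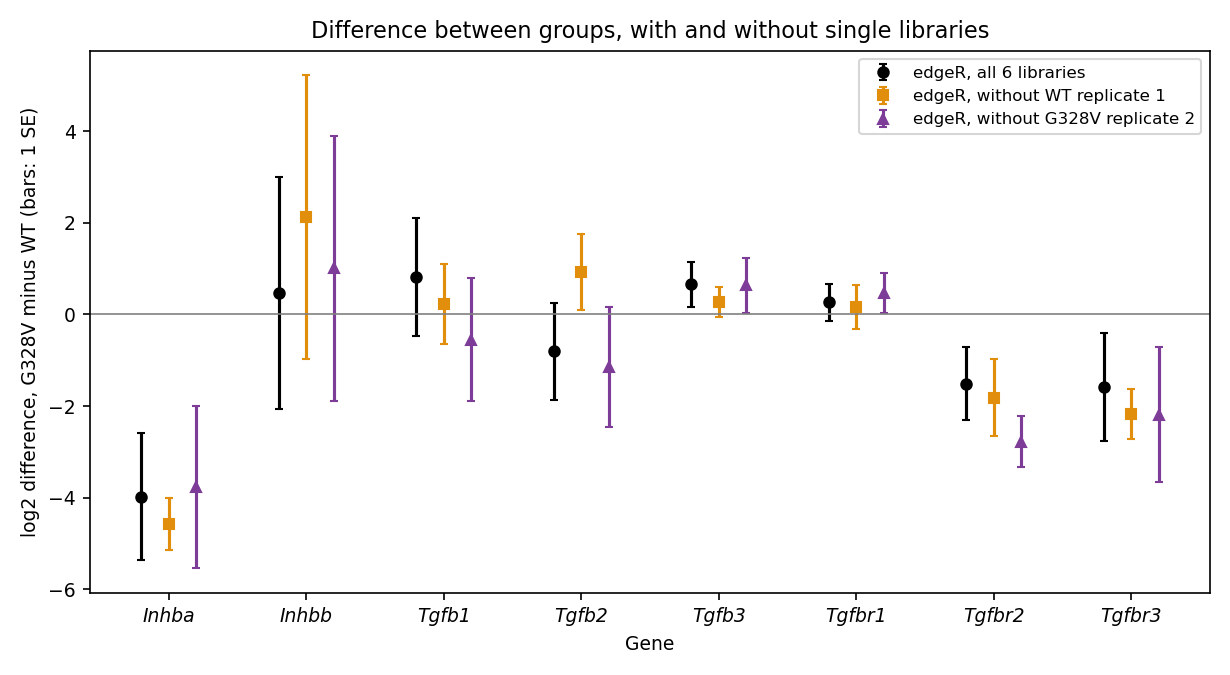
Log2 differences, G328V minus WT, of the 8 genes from edgeR with bars of 1 standard error, for all 6 libraries (black), without WT replicate 1 (orange) and without G328V replicate 2 (purple). Inhba, Tgfbr2 and Tgfbr3 lie below 0 in all 3 fits, Tgfb1 and Tgfb2 each cross 0 when 1 library is left out, and none of the 8 passed edgeR's FDR in any of them.

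The receptor genes together were highest in WT replicates 3 and 70A. Per kilobase of exon, the summed level of Tgfbr1, Tgfbr2 and Tgfbr3 was 14.2, 29.3 and 24.3 CPM per kb across G328V replicates 1, 2 and 3, against 19.2, 56.4 and 48.0 CPM per kb across WT replicates 1, 3 and 70A. Tgfbr1 made up most of it in G328V replicates 1 and 3, at 61.7% and 76.0%. Tgfbr2 was 11.3%, 43.7% and 13.8% of the sum in G328V and 51.7%, 38.4% and 40.0% in WT. Tgfbr3 was 2.99% in WT replicate 1 and 47.7% and 32.5% in WT replicates 3 and 70A, against 10.2% to 27.5% in G328V.

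Ordered by mean level per kilobase of exon, the genes of the G328V group ran from Tgfb3 at 20.5 ± 2.84 CPM per kb, through Tgfb1 at 13.6 ± 14.4, Tgfbr1 at 11.9 ± 5.68, Tgfbr2 at 5.93 ± 6.04, Tgfbr3 at 4.79 ± 2.91, Inhbb at 3.41 ± 5.64 and Tgfb2 at 1.82 ± 1.15, to Inhba at 0.279 ± 0.125 (SD, n = 3). The only neighbours in that order whose libraries did not overlap were Tgfb2 and Inhba, whose nearest values were 0.495 and 0.421 CPM per kb. In WT the order ran from Tgfbr2 at 16.9 ± 6.21 CPM per kb, through Tgfbr3 at 14.4 ± 13.2, Tgfb3 at 13.0 ± 7.88, Tgfbr1 at 9.90 ± 2.87, Tgfb1 at 7.66 ± 6.50, Inhba at 4.40 ± 4.22 and Tgfb2 at 3.17 ± 3.87, to Inhbb at 2.47 ± 3.03, and every pair of neighbours overlapped.

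The genes whose level followed that of each of the 8 most closely were found by Pearson's r of log2 CPM over the 6 libraries, among 8857 genes with a mean of at least 10 CPM. They describe likeness in these libraries only. Each was picked as a best match among many genes over few libraries, so a high r does not show a link. For Inhba they were Hmbox1 (r = 0.994) and Uba1 (0.988), and for Inhbb Itga4 (0.989), an integrin alpha chain, and Snx27 (0.988). Itga4 read 83.5, 15.8 and 2.09 CPM across G328V replicates 1, 2 and 3, and 42.3, 2.05 and 25.0 CPM across WT replicates 1, 3 and 70A. For the ligands they were Iqsec1 (0.995) and Sav1 (0.993), a Hippo pathway scaffold, with Tgfb1, Cbll1 and Enox2 (both 0.995) with Tgfb2, and Tom1 (0.993) and Timm17b (0.990) with Tgfb3. For the receptors they were Sdc2 (0.974), a syndecan, and Ttc8 (0.965) with Tgfbr1, Glipr2 (0.988) and Adrbk1 (0.986) with Tgfbr2, and Il10rb (0.991) and Mast3 (0.988) with Tgfbr3. Glipr2 read 2.57, 31.6 and 8.55 CPM across the G328V libraries and 20.9, 54.5 and 35.5 CPM across the WT libraries. Pearson's r does not measure the size of a swing, and several of the named genes varied far less than their partner. Snx27 lay between 108 and 163 CPM, Uba1 between 651 and 1257 CPM and Adrbk1 between 87.7 and 119 CPM.

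Around these genes, 9 lists of pathway genes held 63 genes, of which 56 were tested. EdgeR called 0 of the 56 and DESeq2 called 2, Bambi as higher and Itgb8 as lower, beside 1.05% of all genes. At an edgeR unadjusted p under 0.05 there were 7 of 56, 3 higher and 4 lower, and groups did not overlap for 8, 4 in each direction, beside 4.06% and 9.70% of all genes tested. Without WT replicate 1 edgeR called 0 of these genes, and DESeq2 called Acvr1c and Bambi as higher and Pmepa1 as lower, beside 4.63% of all genes. With another library left out DESeq2 called Bambi without G328V replicate 1, beside 1.79% of all genes. It called none without G328V replicate 2 or 3, beside 2.49% and 2.07%. Without WT replicate 3 it called Fstl3 and Itgb8, beside 1.72%. Without WT replicate 70A it called Acvr2b, Bambi, Cd109, Fn1, Itgb8 and Tgfb1i1, beside 2.38%. Of these, Fstl3 and Fn1 are named after their values were seen. Each gene described from these 9 lists is among the 2 with the smallest p of its list unless said otherwise, and the edgeR adjusted p was 0.997 for every one with all 6 libraries.

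Of the other ligands, Inha, which encodes the alpha subunit that pairs with a beta subunit to form inhibin, was at most 1.62 CPM, with a log2 difference of 2.10 ± 2.58 (SE) that was 0.54 without G328V replicate 2 and 5.37 without WT replicate 70A. In the list of other activin-branch ligands all 3 tested genes had negative differences, with a median of -0.94 that was -0.15 without WT replicate 3. Lefty1, a secreted Nodal antagonist, reached 10.6 CPM in WT replicate 3, while no other library exceeded 0.441 CPM, so its difference of -3.83 turned to 1.83 without that library. Gdf3 was at most 0.569 CPM in any library.

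All 4 activin receptor genes were tested, 3 with positive differences and a median of 0.71 that was 0.51 without G328V replicate 2 and 1.08 without WT replicate 70A. Acvr1c, which encodes the type I receptor ALK7, drew 63, 36 and 20 counts across G328V replicates 1, 2 and 3, and 0, 0 and 1 across WT replicates 1, 3 and 70A. Its groups did not overlap, its level was at most 0.367 CPM, and the size of its fitted difference is not a measured value against so few WT counts (edgeR unadjusted p = 0.0108). Acvr2b, an activin type II receptor, read 7.29, 9.05 and 5.60 CPM across the G328V libraries and 2.74, 1.95 and 4.86 CPM across the WT libraries, which did not overlap, with a log2 difference of 1.20 ± 0.62 (SE). The more abundant Acvr1b and Acvr2a, named to complete the list, had differences of 0.22 and -0.10 and overlapping groups. The 3 extracellular inhibitors of activin had positive differences with a median of 0.56 that was 0.30 without G328V replicate 2 and 2.06 without WT replicate 3. Fst, which encodes follistatin, read 7.05, 13.5 and 45.6 CPM across the G328V libraries and 1.29, 13.4 and 9.12 CPM across the WT libraries, and its difference of 1.47 was 0.37 without G328V replicate 3. Fstl1 differed by 0.56, and by -0.38 without G328V replicate 2.

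TGF-beta is secreted in a latent complex, held by latent TGF-beta binding proteins and freed by integrins, proteases and thrombospondin. The 6 latency genes split evenly, 3 positive and 3 negative, with a median of 0.10. That median was -1.39 without G328V replicate 2, -0.46 without WT replicate 1, -0.12 without WT replicate 3 and between 0.55 and 0.91 without any one of the other 3 libraries. Ltbp3 read 126, 315 and 157 CPM across the G328V libraries and 222, 405 and 551 CPM across the WT libraries, with a log2 difference of -0.98 ± 0.49 (SE). Ltbp1 read 144, 41.1 and 257 CPM across the G328V libraries and 125, 340 and 498 CPM across the WT libraries, with a difference of -1.12 ± 0.76 (SE). For both genes WT replicates 3 and 70A were the highest libraries and WT replicate 1 lay within the G328V range. Of 7 tested activators, 3 had positive and 4 negative differences, with a median of -0.40 that was -0.016 without WT replicate 70A and turned to 0.18 without WT replicate 3. Itgb8, whose integrin activates latent TGF-beta in the brain, read 1.67, 1.22 and 0.859 CPM across the G328V libraries and 57.8, 6.89 and 1.39 CPM across the WT libraries, so the groups overlapped through WT replicate 70A. Its difference was -4.14 ± 1.39 (SE), and DESeq2 gave an adjusted p of 0.0492. The difference was -1.74 without WT replicate 1, and DESeq2 no longer called it without that library (adjusted p = 0.408) or without any one G328V library (adjusted p from 0.106 to 0.193). Thbs1 was at 212 CPM in WT replicate 70A alone, and its difference of -2.12 was -0.48 without that library.

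Among 6 accessory and pseudo-receptors the median was 0.77, with 4 positive and 2 negative, and it was 1.29 without WT replicate 70A. Bambi, a pseudoreceptor that lacks a kinase and damps TGF-beta and activin signals, read 23.8, 69.4 and 73.6 CPM across the G328V libraries and 11.3, 8.09 and 14.2 CPM across the WT libraries, which did not overlap. Its log2 difference was 2.31 ± 0.51 (SE, edgeR unadjusted p = 0.00377), and DESeq2 gave an adjusted p of 0.0123. That call was lost without G328V replicate 2, G328V replicate 3 or WT replicate 3, where the DESeq2 adjusted p was 0.0732, 0.0952 and 0.0781, and the difference stayed between 2.06 and 2.68 by edgeR with any one library left out. Bambi is also a target of BMP signalling. Cd109, a membrane protein that binds TGF-beta 1 and its receptors, read 150, 140 and 207 CPM across the G328V libraries and 30.5, 63.3 and 102 CPM across the WT libraries, which did not overlap, with a difference of 1.35 ± 0.46 (SE). Cd109 differed by 0.99 without WT replicate 1.

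Of 15 SMAD genes and regulators, 10 had negative and 5 positive differences, with a median of -0.10 that ranged from -0.28 without WT replicate 1 to -0.042 without WT replicate 70A. In G328V 3 of the 15 were lower without overlap, beside 4.45% of all genes. Pmepa1, a SMAD2/3 target that feeds back on TGF-beta signalling, read 6.20, 23.9 and 27.3 CPM across the G328V libraries and 42.7, 126 and 82.1 CPM across the WT libraries. Its log2 difference was -2.13 ± 0.67 (SE, edgeR unadjusted p = 0.0184), and it ranged from -2.48 to -1.71 with single libraries left out. Tgif2, a transcriptional corepressor of SMADs, read 62.8, 57.0 and 57.4 CPM across the G328V libraries and 153, 89.6 and 79.9 CPM across the WT libraries, with a difference of -0.86 ± 0.31 (SE), and -0.54 without WT replicate 1. Smad2, the third gene without overlap, named after its values were seen, read 80.0, 76.2 and 81.8 CPM across the G328V libraries and 106, 109 and 114 CPM across the WT libraries, with a difference of -0.47 ± 0.19 (SE, edgeR unadjusted p = 0.0497). Among 15 SMAD2/3 target genes, 10 had positive and 5 negative differences, with a median of 0.66, so Pmepa1 lay opposite to most of its list. That median was 0.065 without G328V replicate 2, 0.090 without WT replicate 1, 0.43 without G328V replicate 3, 1.07 without G328V replicate 1 and 1.14 without WT replicate 70A. Tgfb1i1, next in p, reached 24.3 CPM in G328V replicate 2, while no other library exceeded 1.19 CPM, and its difference of 4.34 was 0.77 without that library. Tagln, the other target without overlap and named after its values were seen, was at most 0.293 CPM in any library.

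**Figure D4:**
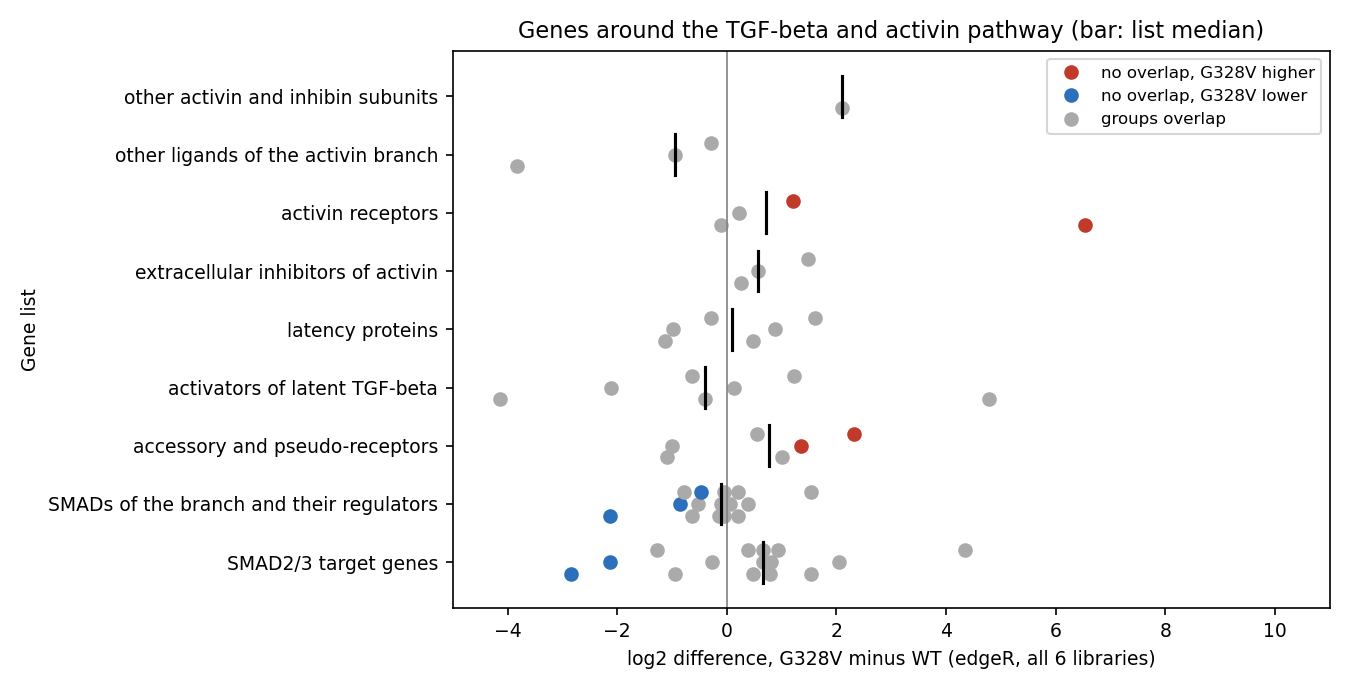
Log2 differences, G328V minus WT (edgeR, all 6 libraries), of the tested genes in 9 pathway lists, 1 point per gene, coloured by whether the 3 G328V and 3 WT libraries overlap, with a bar at each list's median. Points without overlap lie on both sides of 0, 4 genes on each, and Pmepa1, which is in both of the lowest lists, is drawn in each.

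Markers of other cell types varied between the same libraries. Of 9 endothelial markers 8 were in the table, and their summed level was 36.9 to 97.9 CPM in G328V and 8.55 to 67.0 CPM in WT, most of it Flt1 except in WT replicate 70A. The defining markers Pecam1 and Tie1 were at most 0.972 and 0.0325 CPM. Cdh5 reached 12.1 and 38.7 CPM in WT replicates 3 and 70A and at most 1.09 CPM elsewhere. Esam was also highest in WT replicate 70A, at 1.10 CPM. Other endothelial markers differed from this, with Flt1 and Kdr highest in G328V replicates 2 and 1, at 93.1 and 17.4 CPM. Pecam1 and Tek were lowest in WT replicate 70A, at 0.132 and 0.0689 CPM. All 10 fibroblast and mural markers were in the table, with a summed level of 63.5 to 300 CPM in G328V and 8.99 to 506 CPM in WT, and Dcn was at most 0.769 CPM. Most of the highest G328V sum was Rgs5, at 299 CPM in G328V replicate 3. Most of the highest WT sum was Col3a1, at 455 CPM in WT replicate 70A. Of 10 microglia and macrophage markers 6 were in the table, and their summed level was at most 2.37 CPM. In WT replicate 1 the summed level of oligodendrocyte lineage markers, 7 of 10 in the table, was 1047 CPM against 14.5 to 304 CPM elsewhere. In G328V replicate 1 the summed level of neural crest and Schwann markers, 7 of 8 in the table, was 457 CPM against 44.6 to 131 CPM elsewhere. Sox10, which is also in the oligodendrocyte lineage list, was at 65.2 CPM there and at most 0.0574 CPM elsewhere. Tfap2b reached 190 CPM in that library and 30.0 CPM in G328V replicate 2, and no other library exceeded 0.260 CPM (edgeR adjusted p = 0.997, DESeq2 adjusted p = 2.33e-04). All 8 astrocyte markers were in the table, with a summed level of 339 to 1800 CPM in G328V and 236 to 451 CPM in WT. Most of the highest sum was Sparcl1, at 1666 CPM in G328V replicate 2, while Gfap and Aqp4 were at most 10.1 and 4.72 CPM. Neuron markers, 9 of 10 in the table, summed to 53.6 to 189 CPM in G328V and 62.4 to 100.0 CPM in WT, and Rbfox3 was at most 1.17 CPM. Most of the neuron sum was Gad2 except in WT replicate 1. The part of these cell type markers in the levels of the 8 genes was not tested.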

How the data were processed

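Total RNA of 6 neurosphere cultures was ribodepleted and sequenced with stranded, paired-end libraries, per the labels' protocols. The authors deposited raw counts per gene symbol (HTSeq, 17551 genes, 0 rows that name no gene) and estimated counts of fragments (Cufflinks, 23107 genes). The submitters' processing notes name build mm10, TopHat2 2.0.13, Bowtie2 2.2.1 and FastQC 0.11.3. Neither annotation nor strand setting is given in the sources used here. A fragment gave 1.95 to 1.96 counts in the median gene, so counts are not independent molecules. Totals of 115953495 to 191115532 counts make counting error small beside the spread between libraries, except where a gene had few counts in a library, as Inhbb, Acvr1c, Inha, Lefty1, Gdf3 and Tagln did.

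The main test of G328V against WT was edgeR's quasi-likelihood F-test (version 4.0.16 in R 4.3.3, legacy robust fit, TMM, filterByExpr with a minimum count of 10). It had no covariate, and p-values were adjusted by Benjamini-Hochberg over 14643 genes at an FDR of 0.05. Standard errors came from the F statistic. Group means are of TMM-scaled CPM. DESeq2 1.42.0, limma 3.58.1 (voom), other scalings and filters, the rounded Cufflinks counts, a replicate block and leaving out each library were alternatives, and DESeq2 without each library was added after the data were seen. The gene tests were also run on simulated counts, where edgeR kept to its FDR and DESeq2 made more false calls than its FDR allows. Those counts were drawn from levels and dispersions that edgeR itself had estimated. The outcome therefore cannot decide how either tool behaves on the real libraries.

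Levels per kilobase use the union of GENCODE M21 exons (GRCm38). Parts of the exons of Tgfb2, Tgfb3 and Tgfbr3 are shared with 4 predicted genes, 3 of them antisense, at 2.14% to 7.60% of the member's exonic length for each, and these had no row of their own. Log2 CPM for likeness and spread used a prior count of 2. Genes of the lists were named by smallest p, up to 2 per list, and the most alike genes among those with at least 10 CPM, predicted, clone and small RNA symbols left out. The members and lists were chosen with earlier results of these data known.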

Additional observations from a re-analysis of the deposited data

How the results depend on the processing

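Inhba, Tgfb3, Tgfbr2 and Tgfbr3 kept the direction of their log2 difference in all 21 alternatives, with ranges of -4.56 to -1.67, 0.27 to 1.18, -2.79 to -1.07 and -2.20 to -0.35. The alternatives refit the same libraries, and each library was left out by both edgeR and DESeq2, so the 21 are not independent. Inhbb reversed in 6 alternatives, with -1.09 by limma-voom, -0.42 with the replicate block, -4.06 and -0.11 by edgeR without G328V replicate 1 and WT replicate 3, and -4.10 and -0.15 by DESeq2 without the same libraries. By edgeR and DESeq2 respectively, Tgfb1 reversed to -0.55 and -0.56 without G328V replicate 2, Tgfb2 to 0.93 and 0.95 without WT replicate 1, and Tgfbr1 to -0.20 and -0.21 without G328V replicate 3. With edgeR and 1 library left out, Inhbb, Tgfb1, Tgfb2 and Tgfbr1 ranged from -4.06 to 2.13, -0.55 to 1.37, -1.28 to 0.93 and -0.20 to 0.52. The causes were not tested. The 0 calls by edgeR over all genes, and among the 8, held for every edgeR and limma-voom alternative, where 456 to 1024 genes were at an unadjusted p under 0.05. DESeq2 called 173 genes. Without G328V replicates 1, 2 and 3 that became 283, 405 and 329, and without WT replicates 1, 3 and 70A 727, 272 and 374. Among the 8 it called 0 to 2 with 1 library left out: Inhba and Tgfbr3 without WT replicate 1, and Tgfbr2 without G328V replicate 2. Total-count scaling moved the median of all genes to 0.12 and reversed none of the 8.

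The groups share the replicate numbers 1 and 3, which the labels do not tie to a common source. The correlation of deviations from the group means, across genes, was 0.18 for number 1 and 0.23 for number 3, with 2 such pairs. In the replicate block, G328V replicate 2 and WT replicate 70A had no partner, so its log2 differences rested on numbers 1 and 3 alone. For Tgfbr2 the block thus set aside G328V replicate 2, the G328V library through which the groups overlapped. The replicate block called none (0 genes, and 609 had an unadjusted p under 0.05) and gave Tgfbr2 a log2 difference of -2.66 (edgeR unadjusted p = 0.00288, adjusted p = 1.0), Inhba -1.67 ± 3.52 (SE, edgeR unadjusted p = 0.668) and Tgfbr3 -0.35 ± 2.75 (SE). Leaving out WT replicate 1 leaves 2 WT libraries, and depth does not limit the 8 genes apart from Inhbb in G328V replicate 3 and WT replicate 3, at 1 and 6 counts.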
